A study of Mus musculus with 14 samples.

Results

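Transcripts of the heat shock protein and protein disaggregation machinery were followed in the mouse anterior cortex. The members are 40 genes of the 19360 gene symbols in the deposited table, taken by name. They comprise 7 members of the HSP70 family, 3 of the HSP110 family, 2 of the HSP90 family, 3 small heat shock proteins, 2 heat shock factors, 14 J-proteins, 4 BAG proteins, 4 other co-chaperones and the disaggregase gene Clpb. Each gene was represented by the transcript with the most reads, which for 9 members meant a choice among several transcripts.

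The mice carried the DG allele of Vcp, which encodes the AAA+ ATPase p97, and were of the C57BL/6J strain, aged 15 months. There were 4 homozygotes (DG/DG), 6 heterozygotes (DG/+) and 4 wild types (WT), each giving 1 library, so that replicates are separate mice. The title of the series calls the allele a dominant hypomorph and concerns the disaggregation of filamentous tau. The labels state neither the sex, the litter nor a batch of the mice, and no stress or tau treatment is labelled for any of them.

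HSP70 binds and releases unfolded protein segments in an ATP-driven cycle. J-proteins deliver substrates to HSP70 and trigger its ATP hydrolysis, and HSP110 and BAG proteins exchange the nucleotide so that the substrate is let go. In animal cells HSP70, J-proteins and HSP110 together take aggregates apart, a task in which p97 also acts on ubiquitylated substrates. Under proteotoxic stress, heat shock factor 1 (HSF1) induces Hspa1a, Hspa1b, Hsph1, Dnajb1, Hspb1 and Bag3, whereas Hspa8 and Hsp90ab1 serve the unstressed cell.

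Read counts summed to between 12.68 and 23.34 M (mega) per library over all transcripts and to between 8.65 and 15.91 M over the transcripts kept. The members took 0.6% to 0.716% of the kept counts, and all 40 had reads in all 14 libraries. Levels are given in counts per M (CPM), with libraries scaled by the trimmed mean of M-values (TMM). Vcp itself stood at 106.6 to 115.1 CPM in DG/DG, 92.2 to 104.0 CPM in DG/+ and 85.3 to 103.7 CPM in WT, and read counts per gene do not show which allele a transcript came from. Summed markers of neighbouring tissue stood apart in some libraries. The 4 pituitary markers reached 4185 CPM in DG/DG replicate 1 and at most 101.6 CPM in the other libraries, with Gh and Cga at 0 in some. The 5 choroid plexus markers lay at 22.6 to 26.7 CPM in DG/DG, 12.2 to 568.1 CPM in DG/+ and 25.8 to 1237 CPM in WT, and the 4 cerebellar markers reached 67.8 CPM in DG/+ replicate 2 and 53.0 CPM in WT replicate 2. DG/DG replicate 1, DG/+ replicate 2 and WT replicates 2 and 3 are the 4 libraries with transcripts of neighbouring tissue that some values below leave out, although DG/+ replicates 1 and 5 with high choroid plexus markers stayed in. Markers of the labelled tissue were abundant throughout, with 5 excitatory neuron markers summing to 2131 to 2964 CPM in DG/DG, 2171 to 3353 CPM in DG/+ and 2248 to 3246 CPM in WT. In bulk tissue, fewer cells of a type and less RNA per cell cannot be told apart.

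HSF1 binds inverted repeats of GAA. The 250 bases upstream of the start sites of members (RefSeq, GRCm38.p6) were therefore searched for a pair of inverted units, TTCNNGAA or GAANNTTC, each of which reads the same on both strands. Promoters of 32 of the 40 members were in the sequence table. The pair occurred upstream of 9 of these genes, namely Hspa1a, Hspa1b, Hsph1, Hspb1, Dnaja1, Dnaja4, Dnajb4, Dnajb6 and Stub1. A member not named here either lacked the pair or had no promoter to search, so its absence does not show that it lacks the pair. Counted by promoter, since some genes have several, the pair occurred in 11 of 44 member promoters and in 12.84% of all 32851 mouse promoters of this length. An alternating run of 3 units, TTCNNGAANNTTC or GAANNTTCNNGAA, was present upstream of Dnajb6 only among these 32 genes. By promoter, it was in 2 of the 44 member promoters and in 0.466% of all promoters. Such matches describe letters and not binding. The windows of 5 genes are shown on the strand of the gene, with the matched units in capitals, because the text below returns to their transcripts as readouts of the heat shock response or, for Dnajb6, because of the 3-unit run. They lie at chr17:34972157-34972406 (minus strand, Hspa1a), chr17:34959239-34959488 (minus strand, Hspa1b), chr5:149636337-149636586 (minus strand, Hsph1), chr5:135887669-135887918 (plus strand, Hspb1) and chr5:29735648-29735897 (plus strand, Dnajb6).
Hspa1a: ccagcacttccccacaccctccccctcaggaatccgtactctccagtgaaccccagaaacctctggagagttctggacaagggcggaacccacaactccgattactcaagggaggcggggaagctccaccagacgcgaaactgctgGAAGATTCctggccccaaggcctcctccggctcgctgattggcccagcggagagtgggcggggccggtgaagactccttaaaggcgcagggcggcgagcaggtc
Hspa1b: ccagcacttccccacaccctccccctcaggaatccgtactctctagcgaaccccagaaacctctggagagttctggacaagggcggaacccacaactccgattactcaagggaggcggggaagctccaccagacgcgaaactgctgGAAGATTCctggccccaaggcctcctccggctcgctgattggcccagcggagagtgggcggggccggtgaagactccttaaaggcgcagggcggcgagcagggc
Hsph1: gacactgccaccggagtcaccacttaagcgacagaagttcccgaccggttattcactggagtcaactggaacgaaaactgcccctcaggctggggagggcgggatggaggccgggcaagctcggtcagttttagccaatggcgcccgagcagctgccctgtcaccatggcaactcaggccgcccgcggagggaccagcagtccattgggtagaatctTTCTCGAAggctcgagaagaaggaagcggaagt
Hspb1: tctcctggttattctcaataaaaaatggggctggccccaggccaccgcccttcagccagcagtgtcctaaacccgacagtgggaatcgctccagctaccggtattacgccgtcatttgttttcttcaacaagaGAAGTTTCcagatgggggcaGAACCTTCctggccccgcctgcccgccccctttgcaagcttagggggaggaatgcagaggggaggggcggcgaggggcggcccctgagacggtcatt
Dnajb6: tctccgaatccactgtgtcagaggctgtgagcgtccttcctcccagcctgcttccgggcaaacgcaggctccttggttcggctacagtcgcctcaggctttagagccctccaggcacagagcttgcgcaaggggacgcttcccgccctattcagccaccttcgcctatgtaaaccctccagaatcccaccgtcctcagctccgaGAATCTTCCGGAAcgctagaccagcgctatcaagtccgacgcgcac
The Hspa1a and Hspa1b windows were identical at 247 of 250 bases, with the paired unit at the same place, 104 bases before the start site. In Hspb1 the matches began 117 and 97 bases before the start, and in Hsph1 33 bases before it; Hsph1 and Dnajb6 each have a further start site in the table, with the same match farther upstream.

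The likeness of Hspa1a and Hspa1b extends into the transcripts and bears on what their counts can resolve. Of all stretches of 50 bases in each transcript, 66.3% for Hspa1a and 62.3% for Hspa1b also occurred in other genes, mainly in each other. The share was 74.8% for Hspa8 (mainly the pseudogene Gm15459), 58.5% for Hsp90aa1 (mainly Gm12346) and 60.4% for Hspb1 (mainly Hsp25-ps1). It was 41.9% for Dnajb6 and 28.8% for Dnaja1, again chiefly through pseudogenes. Dnaja4 overlapped Wdr61 on the opposite strand over 52.6% of its exon bases, and Stub1 overlapped Jmjd8 over 45.3%. How the authors treated reads with several matches, and whether they counted by strand, is not given in the sources used here, so the values of these genes are less certain than those of Hspa4, Hsph1, Hsf1, Cryab or Bag3, which shared none.

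Constitutive chaperones were the most abundant members. Divided by transcript length, mean levels over the 14 libraries were highest for Hsp90ab1 at 541.7 CPM per kb and Hspa8 at 240.2 CPM per kb. Hsp90aa1, the inducible HSP90, followed at 137.7 CPM per kb, and Dnajc6, the auxilin that recruits HSP70 to clathrin coats, at 112.8 CPM per kb. Next came the HSP110 gene Hsph1 with 93.4 CPM per kb, Stip1, which hands clients between HSP70 and HSP90, with 89.8 CPM per kb, and the small heat shock protein Cryab with 82.6 CPM per kb. The stress-inducible HSP70 genes stood near the other end, with Hspa1b at 4.13 and Hspa1a at 3.301 CPM per kb. Hspb1 had 5.26 CPM per kb, Bag3, the partner of HSP70 in selective autophagy, had 2.71 CPM per kb, and Dnajc25 was the lowest member with 0.739 CPM per kb.

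**Figure D1:**
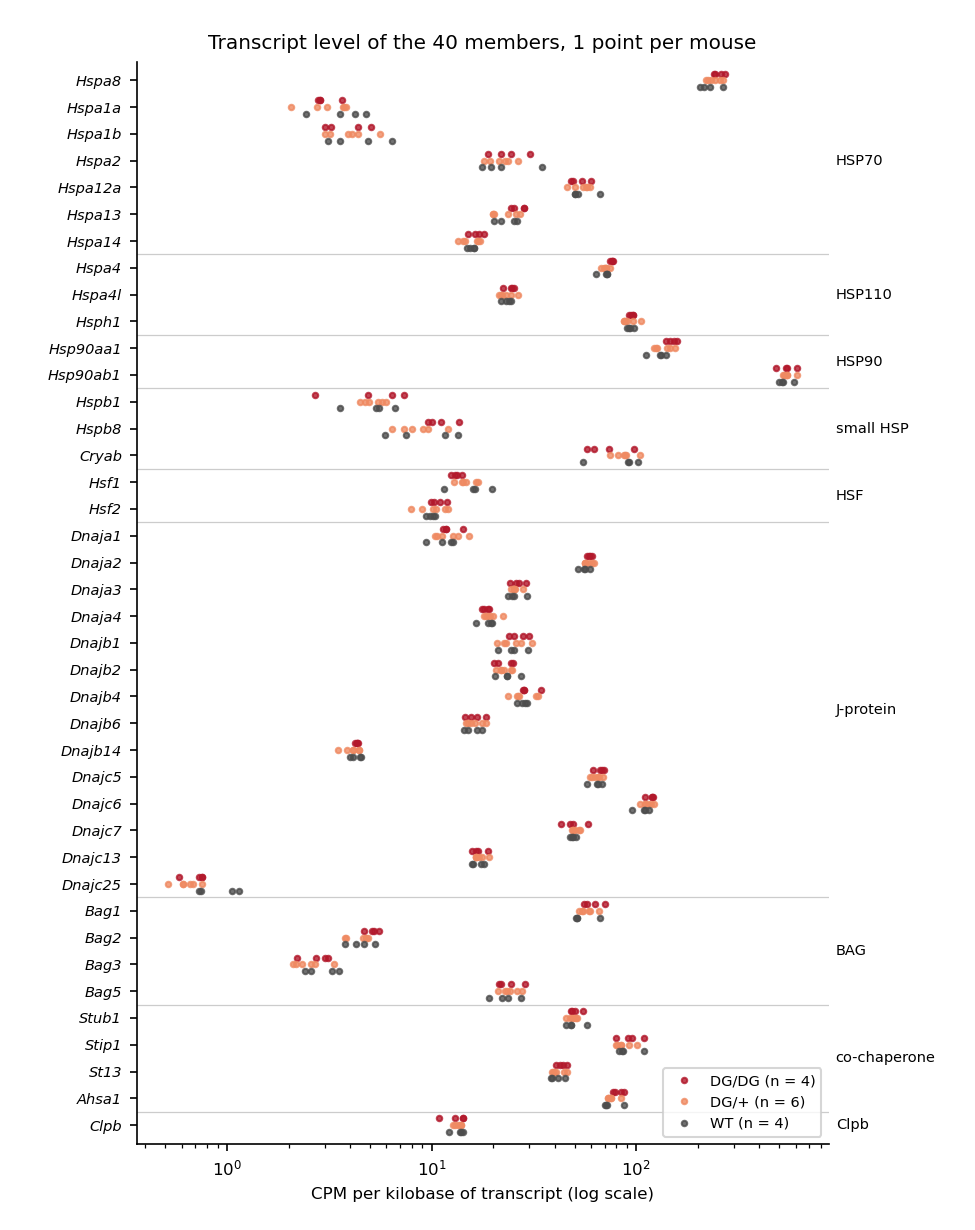
Level of each of the 40 members in CPM per kilobase of transcript (x axis, log scale), with 1 point per mouse and genes grouped by role; DG/DG, DG/+ and WT are drawn from top to bottom within each gene. Hsp90ab1 averaged 541.7 and Hspa1a 3.301 CPM per kb, and the genotypes lay close to each other beside this range.

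Levels also differed among the members of a role. Among HSP110 genes, which encode nucleotide exchange factors of HSP70, Hsph1 and Hspa4 (71.9 CPM per kb) stood above Hspa4l (23.5 CPM per kb). Among J-proteins, Dnajc6 and Dnajc5 (64.4 CPM per kb), the synaptic vesicle chaperone CSPα, led with the general HSP70 partner Dnaja2 (57.8 CPM per kb). Dnajb1, the class B J-protein of the disaggregating complex, had 25.5 CPM per kb and Dnajb6, known for restraining polyglutamine aggregation, 16.2 CPM per kb. Bag1 had 58.0 CPM per kb and was the highest BAG gene. Of the other co-chaperones, the HSP90 activator Ahsa1 had 77.3 CPM per kb, the ubiquitin ligase gene Stub1 (CHIP) 49.6 CPM per kb and St13 41.7 CPM per kb. Clpb, a mitochondrial relative of the yeast disaggregase Hsp104, had 13.4 CPM per kb, Hsf1 14.7 CPM per kb and Hsf2 10.3 CPM per kb.

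Whether the DG allele went with altered chaperone expression was asked by contrasting the genotypes in edgeR, with quasi-likelihood tests on counts of all 14 libraries and Benjamini-Hochberg adjustment over the 14565 genes that passed the filter on low counts. All 40 members passed that filter. None of the 40 members passed an adjusted p of 0.05 in DG/DG against WT, in DG/+ against WT or in DG/DG against DG/+, and the share of all genes that passed was 0% in each. DESeq2 and limma-voom likewise called 0 members and 0 genes in all 3 comparisons. In the authors' deposited table, 0 members had a false discovery rate below 0.05 in either comparison with WT.

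In DG/DG against WT, 30 of the 40 members had a fold change above 0, against 50.1% of all genes tested. Their median log2 fold change was 0.043, beside 3e-04 over all genes tested, and it was 0.092 without WT replicate 1, 0.028 without DG/DG replicate 3, 0.029 without WT replicate 4 and 0.075 without DG/DG replicate 4. At an unadjusted p below 0.05 there was 1 member higher in DG/DG, Hsp90aa1, against 2.15% of all genes, and 0 lower, against 2.98%. In 1 member, Hspa4, all DG/DG libraries lay above all WT libraries, as in 1.43% of all genes, and in 0 members all lay below, against 1.19%. By role, the fold change was above 0 for 4 of 7 HSP70 genes, 3 of 3 HSP110 genes, 2 of 2 HSP90 genes, 2 of 3 small heat shock proteins, 1 of 2 heat shock factors, 11 of 14 J-proteins, 3 of 4 BAG genes and 4 of 4 other co-chaperones, and below 0 for Clpb. Among the roles with at least 3 genes, the median log2 fold change ranged between 0.017 in small heat shock proteins and 0.11 in BAG genes. These medians moved with single libraries, and with 1 left out at a time that of small heat shock proteins ranged between -0.18 and 0.15, that of HSP70 genes between -0.11 and 0.097 and that of BAG genes between 0.050 and 0.21.

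Several marker lists moved by more than the member median in the same comparison, and 0 genes of any marker list passed the adjusted test in edgeR. In DG/DG against WT all 5 microglial markers lay above 0, with a median log2 fold change of 0.17, as did all 5 immediate early genes, with a median of 0.27, and all 5 tested striatal markers, with a median of 0.67. All 5 oligodendrocyte markers lay below 0, with a median of -0.16, as did 4 of 5 excitatory neuron markers, with a median of -0.14. Larger medians came from markers of neighbouring tissue and blood. They were 7.85 over 3 tested pituitary and 0.91 over 3 tested blood markers, and -1.69 over 5 choroid plexus and -1.655 over 2 tested cerebellar markers. Of 5 astrocyte markers 4 lay above 0 and 1 below, with a median of 0.094. At an unadjusted p below 0.05 in edgeR there were 3 pituitary markers and 1 astrocyte marker higher, and 3 choroid plexus markers lower. Summed microglial markers stood at 230.7 to 296.6 CPM in DG/DG, 230.6 to 279.1 CPM in DG/+ and 216.1 to 259.6 CPM in WT, and summed immediate early genes at 822.5 to 1248 CPM in DG/DG, 818.3 to 1493 CPM in DG/+ and 566.5 to 1458 CPM in WT, with reads of every one of these genes in all libraries. The part of tissue composition in the signs of the members was not tested.

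**Figure D2:**
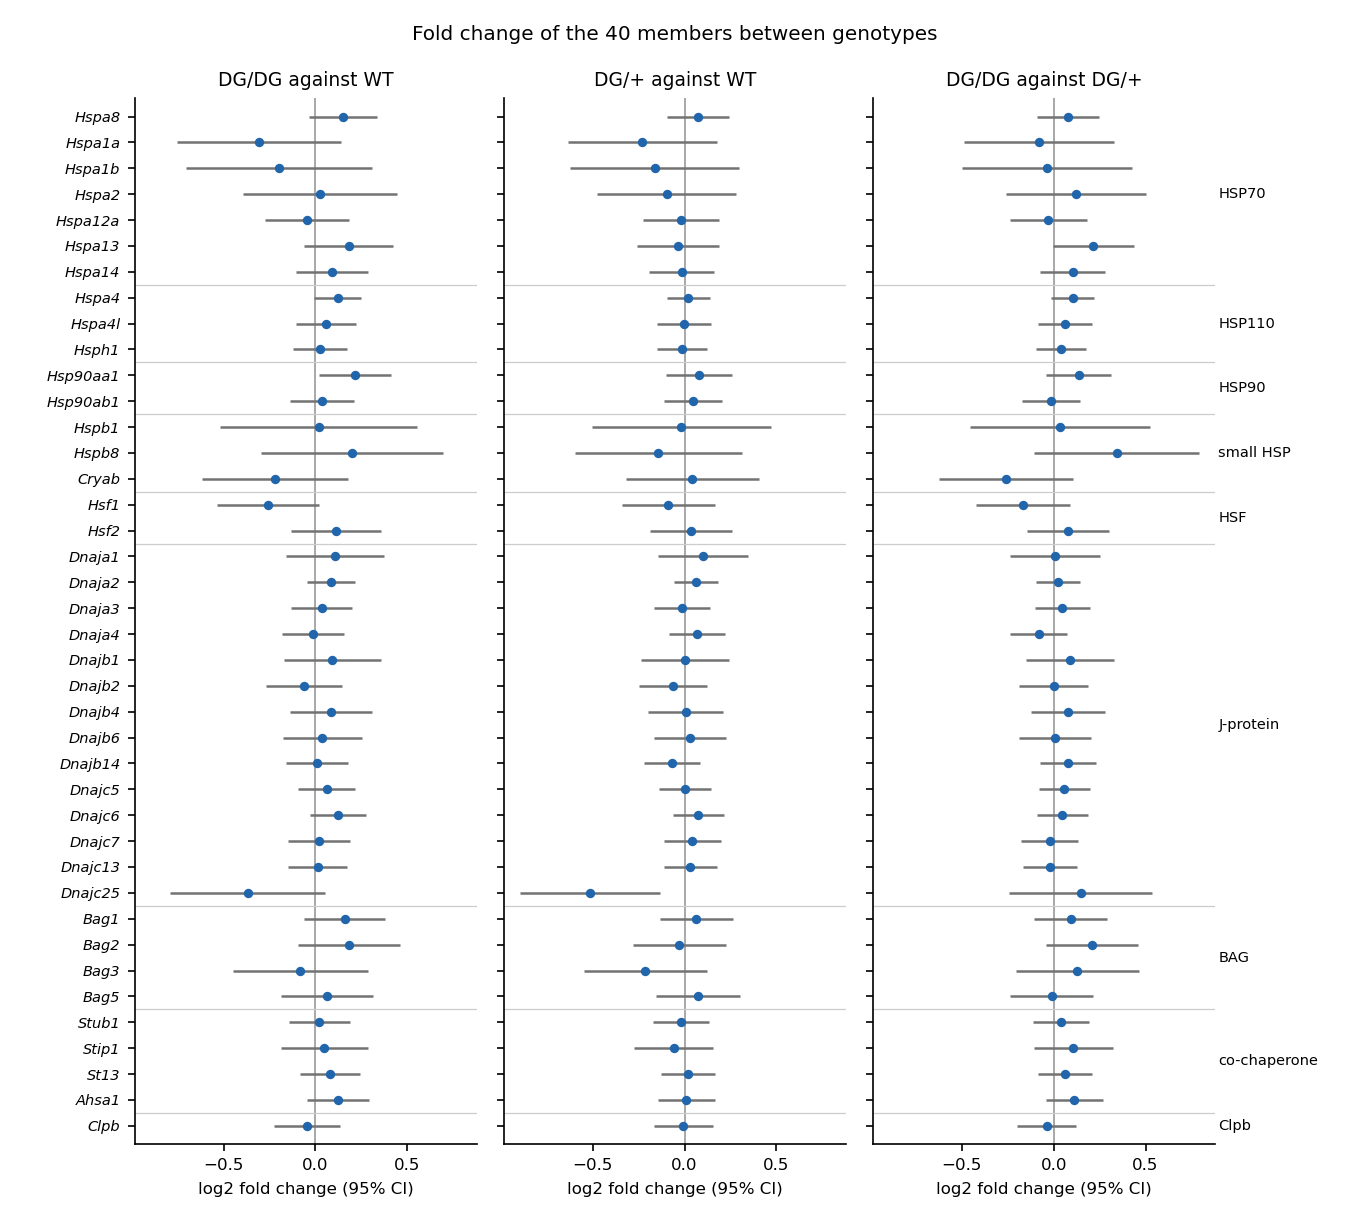
Log2 fold change (x axis; points) with its 95% confidence interval (lines) from edgeR for the 40 members in DG/DG against WT (left), DG/+ against WT (middle) and DG/DG against DG/+ (right), genes grouped by role. All intervals include 0 except that of Hsp90aa1 on the left, 0.021 to 0.41, and that of Dnajc25 in the middle, -0.90 to -0.14.

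The HSP90 pair differed in its values. Hsp90aa1 (NM_010480, chromosome 12, 110691036 to 110696395, mm10) had 477.8, 519.6, 503.1 and 460.1 CPM in DG/DG, a lowest, median and highest value of 398.8, 439.5 and 509.8 CPM in DG/+, and 433.8, 429.8, 460.2 and 365.3 CPM in WT. The lowest DG/DG library and the highest WT library were level, and all other DG/DG libraries lay above WT, while DG/+ spanned both. Hsp90aa1 had a log2 fold change of 0.21 for DG/DG against WT, with a 95% confidence interval of 0.021 to 0.41, an unadjusted p of 0.032 and an adjusted p of 0.886 in edgeR. In the authors' deposited table Hsp90aa1 had a log2 fold change of 0.23 with p = 0.0909 in DG/DG against WT. Hsp90ab1, the constitutive and most abundant member, averaged 1369 ± 132 CPM in DG/DG (SD, n = 4), 1381 ± 82.4 CPM in DG/+ (SD, n = 6) and 1337 ± 105 CPM in WT (SD, n = 4), and the genotypes overlapped.

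Of the HSP110 genes, Hspa4 (chromosome 11, 53259814 to 53300479, mm10) had 357.2, 343.1, 351.4 and 350.1 CPM in DG/DG, a lowest, median and highest value of 310.9, 326.7 and 342.7 CPM in DG/+, and 328.7, 333.0, 332.1 and 293.9 CPM in WT. Every DG/DG library lay above every DG/+ and every WT library, although the gap to the highest DG/+ library was narrow. The log2 fold change of Hspa4 was 0.12 (-0.0052 to 0.25) in DG/DG against WT and 0.10 (-0.013 to 0.22) in DG/DG against DG/+, with adjusted p of 0.886 and 0.972 in edgeR. Without WT replicate 4, the lowest library, the first of these was 0.081, and without the 4 libraries with transcripts of neighbouring tissue it was 0.16. Hsph1 averaged 360.9 ± 8.73 CPM in DG/DG, 351.2 ± 28.1 CPM in DG/+ and 354.8 ± 12.98 CPM in WT (SD, n = 4, 6 and 4), and Hspa4l differed between DG/DG and WT by a log2 fold change of 0.058 (-0.10 to 0.22).

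The HSP70 genes did not share a direction in DG/DG against WT, with 4 above 0 and 3 below. In DG/+ against WT 1 lay above 0 and 6 below, with a median log2 fold change of -0.035, beside 47.3% of all genes above 0. Hspa8, the constitutive HSP70, had 579.8, 617.9, 651.8 and 575.2 CPM in DG/DG, a lowest, median and highest value of 524.7, 568.6 and 632.7 CPM in DG/+, and 633.8, 513.2, 547.9 and 487.9 CPM in WT. The DG/DG values were above WT apart from WT replicate 1, which lay among them. Its log2 fold change in DG/DG against WT was 0.15 (-0.033 to 0.34; edgeR adjusted p 0.886), and 0.23 without WT replicate 1. The inducible Hspa1a had 10.8, 8.24, 8.43 and 8.46 CPM in DG/DG, a lowest, median and highest value of 6.12, 10.1 and 11.3 CPM in DG/+, and 14.2, 7.21, 10.5 and 12.5 CPM in WT. WT held both the highest mouse and one of the lowest, so that the DG/DG values fell inside the WT range. Its log2 fold change was -0.31 (-0.75 to 0.14) in DG/DG against WT and -0.23 (-0.63 to 0.17) in DG/+ against WT. Both values depended on single WT mice, being -0.16 and -0.083 without WT replicate 1, -0.47 and -0.39 without WT replicate 2, and -0.67 and -0.49 without the 4 libraries with transcripts of neighbouring tissue. Hspa1b gave 12.3, 8.48, 14.1 and 9.06 CPM in DG/DG, a lowest, median and highest value of 8.45, 11.2 and 15.6 CPM in DG/+, and 17.9, 8.77, 10.1 and 13.8 CPM in WT, with full overlap. Its log2 fold change of -0.20 (-0.71 to 0.31) in DG/DG against WT was 0.026 without WT replicate 1.

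Of the less studied HSP70 genes, Hspa13, a microsomal member that lacks the substrate-binding part, had 67.3, 75.3, 75.2 and 65.3 CPM in DG/DG and a lowest, median and highest value of 53.5, 58.6 and 72.7 CPM in DG/+. The DG/DG libraries lay in the upper part of the DG/+ range or above it. Its log2 fold change in DG/DG against DG/+ was 0.22 (-0.0044 to 0.43; edgeR adjusted p 0.972), and in WT it stood at 62.4 ± 7.66 CPM (SD, n = 4). Hspa2, Hspa12a and Hspa14 had log2 fold changes of 0.024, -0.048 and 0.089 in DG/DG against WT, all with intervals that include 0.

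Hsf1 itself, the regulator of the inducible genes, had 25.2, 26.2, 28.3 and 26.9 CPM in DG/DG, a lowest, median and highest value of 25.9, 29.1 and 34.2 CPM in DG/+, and 33.02, 32.2, 23.1 and 39.6 CPM in WT. The DG/DG mice were tightly grouped and below 3 of the 4 WT mice, but WT replicate 3 was the lowest of all. The log2 fold change was -0.26 (-0.54 to 0.022) in DG/DG against WT and -0.17 (-0.43 to 0.086) in DG/DG against DG/+, with adjusted p of 0.886 and 0.972 in edgeR. The first of these was -0.14 without WT replicate 4, -0.39 without WT replicate 3 and -0.41 without the 4 libraries with transcripts of neighbouring tissue. Hsf2 had a log2 fold change of 0.11 (-0.13 to 0.36) in DG/DG against WT.

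**Figure D3:**
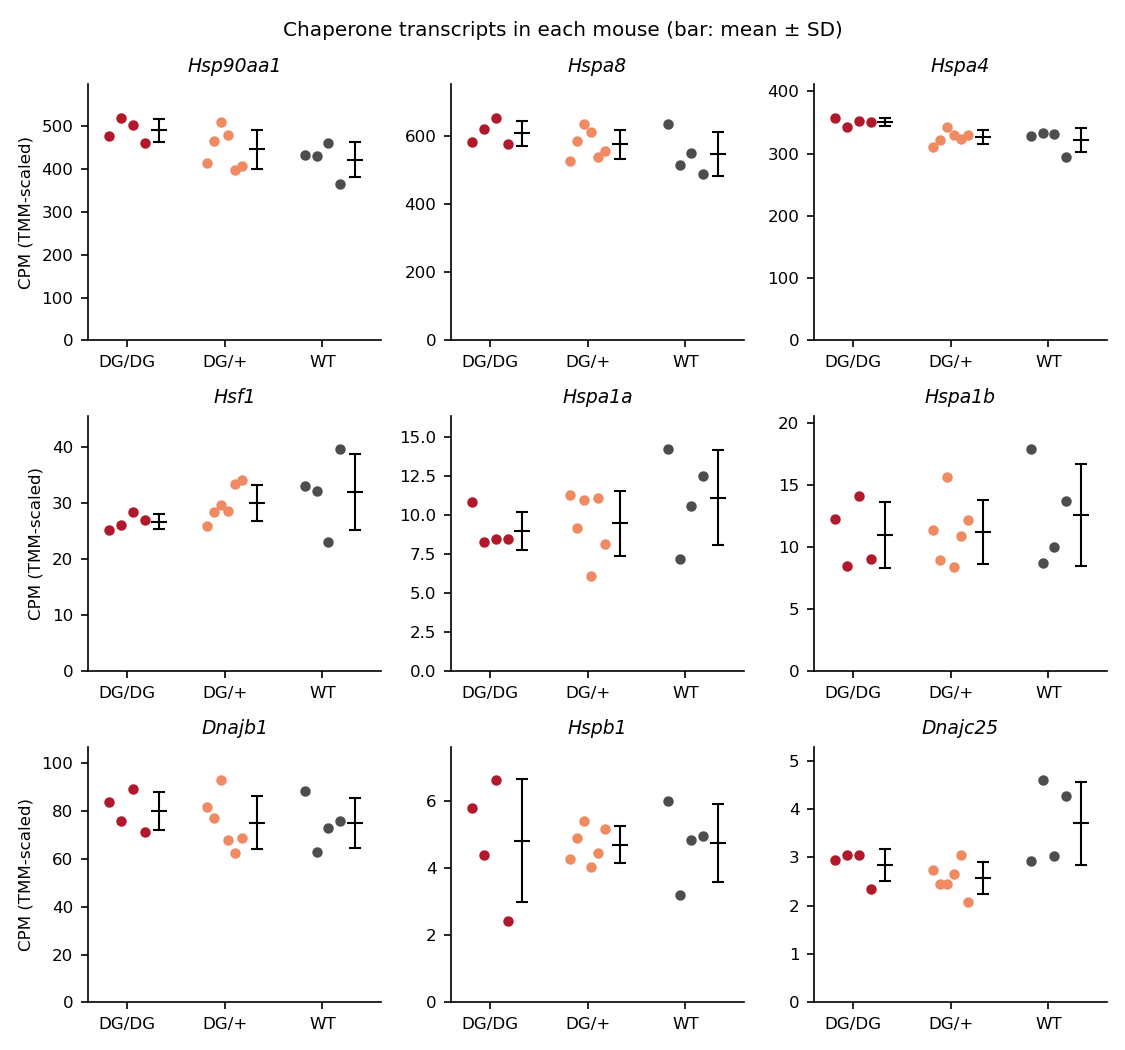
CPM after TMM scaling (y axes, from 0) of 9 members in each mouse of the genotypes DG/DG, DG/+ and WT (x axes), with mean ± SD beside the points. Hspa4 is the panel in which every DG/DG mouse (343.1 to 357.2 CPM) lies above every DG/+ and WT mouse, and Hspa1a, Hspa1b and Hspb1 show the widest spread within genotypes.

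Small heat shock proteins hold unfolded protein until HSP70 takes it over, and their transcripts were among the most variable of the set. Hspb1 had 5.80, 4.40, 6.64 and 2.44 CPM in DG/DG, a lowest, median and highest value of 4.02, 4.68 and 5.41 CPM in DG/+, and 6.00, 3.21, 4.85 and 4.97 CPM in WT. DG/DG held both the highest and the lowest mouse. The log2 fold change of 0.017 (-0.52 to 0.55) in DG/DG against WT was -0.18 without DG/DG replicate 3 and 0.24 without DG/DG replicate 4. Hspb8, which forms a complex with BAG3, averaged 20.1 ± 3.20 CPM in DG/DG, 15.9 ± 3.59 CPM in DG/+ and 17.4 ± 6.32 CPM in WT (SD, n = 4, 6 and 4), with a log2 fold change of 0.34 (-0.11 to 0.79) in DG/DG against DG/+. Cryab had 62.5, 52.8, 82.8 and 48.7 CPM in DG/DG, a lowest, median and highest value of 62.6, 73.9 and 88.6 CPM in DG/+, and 76.9, 78.2, 46.3 and 86.5 CPM in WT. A single DG/DG mouse was high and a single WT mouse low. Its log2 fold change was -0.26 (-0.63 to 0.10) in DG/DG against DG/+ and -0.22 (-0.62 to 0.18) in DG/DG against WT, and the markers that moved with it are given further on. The first value was -0.44 without DG/DG replicate 3 and -0.16 without DG/DG replicate 4.

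The J-proteins held the member with the smallest p of DG/+ against WT, which was also the rarest. In DG/+ against WT, 10 of the 14 J-proteins had a fold change above 0, as had 20 of all 40 members and 47.3% of all genes tested. The members with an unadjusted p below 0.05 in that comparison were 0 higher (0.755% of all genes) and 1 lower (0.844%), namely Dnajc25. Dnajc25 had 2.95, 3.04, 3.04 and 2.35 CPM in DG/DG, a lowest, median and highest value of 2.07, 2.56 and 3.05 CPM in DG/+, and 2.92, 4.60, 3.02 and 4.28 CPM in WT. WT replicates 2 and 4 stood above all other mice, whereas WT replicates 1 and 3 lay within the range of both mutant genotypes. Its log2 fold change was -0.52 (-0.90 to -0.14) in DG/+ against WT, with an unadjusted p of 0.011 and an adjusted p of 0.9999 in edgeR, and -0.37 (-0.79 to 0.051) in DG/DG against WT. In the authors' deposited table Dnajc25 had a log2 fold change of -0.49 with p = 0.0314 in DG/+ against WT, the only member under 0.05 there.

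For every other J-protein the intervals of all 3 comparisons included 0. Dnajc5 averaged 436.3 ± 24.0 CPM in DG/DG, 419.0 ± 23.6 CPM in DG/+ and 418.4 ± 30.02 CPM in WT (SD, n = 4, 6 and 4), with a log2 fold change of 0.060 (-0.093 to 0.21) in DG/DG against WT. Dnajb1 had 83.7, 75.9, 89.2 and 71.3 CPM in DG/DG, a lowest, median and highest value of 62.6, 73.0 and 93.0 CPM in DG/+, and 88.5, 63.0, 72.9 and 75.8 CPM in WT. The genotypes overlapped throughout, and the log2 fold change in DG/DG against WT was 0.093 (-0.17 to 0.36), and -0.058 without the 4 libraries with transcripts of neighbouring tissue. Dnaja1 averaged 69.1 ± 7.61 CPM in DG/DG, 68.9 ± 10.6 CPM in DG/+ and 64.3 ± 8.46 CPM in WT (SD, n = 4, 6 and 4). In DG/+ against WT, Dnajc6, Dnaja2 and Dnaja4 had log2 fold changes of 0.075 (-0.063 to 0.21), 0.063 (-0.057 to 0.18) and 0.068 (-0.086 to 0.22). Leaving out WT replicate 4 brought the first 2 of these to 0.022 and 0.029, and leaving out WT replicate 2 brought that of Dnaja4 to 0.013. Dnajc6 averaged 581.5 ± 31.9 CPM in DG/+ (SD, n = 6) and 551.8 ± 43.5 CPM in WT (SD, n = 4), a difference within their spread. Dnaja4 was lower in DG/DG than in DG/+ by value, with a log2 fold change of -0.082 (-0.24 to 0.072).

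Among nucleotide exchange factors of the BAG family, Bag2, which restrains CHIP, had 9.72, 9.52, 10.3 and 8.72 CPM in DG/DG, and a lowest, median and highest value of 7.001, 8.74 and 9.12 CPM in DG/+. Only the lowest DG/DG mouse fell within the DG/+ range. The log2 fold change was 0.21 (-0.043 to 0.46; edgeR adjusted p 0.972). Bag3 had 7.76, 6.96, 7.96 and 5.67 CPM in DG/DG, a lowest, median and highest value of 5.39, 6.27 and 8.50 CPM in DG/+, and 8.37, 6.60, 6.18 and 9.02 CPM in WT. All genotypes overlapped, with log2 fold changes of -0.083 (-0.45 to 0.28) in DG/DG against WT and -0.21 (-0.55 to 0.12) in DG/+ against WT. Bag1 and Bag5 had log2 fold changes of 0.16 and 0.062 in DG/DG against WT. Of the other co-chaperones, Ahsa1 averaged 112.7 ± 6.72 CPM in DG/DG, 104.2 ± 6.20 CPM in DG/+ and 103.5 ± 11.3 CPM in WT (SD, n = 4, 6 and 4), and Stip1, Stub1 and St13 had log2 fold changes of 0.048, 0.021 and 0.080 in DG/DG against WT. Clpb stood at 60.7 ± 7.30 CPM in DG/DG, 62.3 ± 2.34 CPM in DG/+ and 62.5 ± 4.21 CPM in WT (SD, n = 4, 6 and 4).

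In DG/DG against DG/+, 29 of the 40 members had a fold change above 0, beside 50.6% of all genes tested, with a median of 0.053 beside 0.0023 over all genes. There were 0 members with an unadjusted p below 0.05 in either direction, beside 1.68% of all genes higher and 1.62% lower. Groups that did not overlap were seen for 1 member, Hspa4, higher in DG/DG, beside 0.803% of all genes, and for 0 members lower, beside 0.405%. The comparisons of DG/DG with WT and with DG/+ share the DG/DG libraries, so their values are not independent.

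The intervals set bounds on what could have been missed. In DG/DG against WT the 95% interval of 35 members lay within a 1.5-fold change either way, and that of 23 members within 1.25-fold. The 5 members whose intervals reached beyond 1.5-fold were Hspa1a, Hspa1b, Hspb8, Cryab and Dnajc25. Their bounds reached -0.79 for Dnajc25 and 0.69 for Hspb8 on the log2 scale. The widest interval was that of Hspb1, -0.52 to 0.55, which stayed within 1.5-fold because its estimate lay near 0. In DG/+ against WT the counts were 36 and 30 members, and in DG/DG against DG/+ they were 38 and 28. A p above the threshold does not show that the genotypes are alike within these bounds.

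Chaperones outside the 40 members were counted from lists of related families. All 10 chaperones of the endoplasmic reticulum and mitochondria had a fold change above 0 in DG/DG against WT, with a median of 0.087, beside 50.1% of all genes tested, and 0 of them passed the adjusted test in edgeR. The closest was mitochondrial HSP70, Hspa9, at 258.5 CPM in DG/DG and 236.4 CPM in WT (log2 fold change 0.13, -0.0087 to 0.27), followed by the chaperonin genes Hspd1 (0.15, -0.022 to 0.31) and Hspe1 (0.16, -0.068 to 0.40). Of 27 further J-proteins 18 had a fold change above 0 and 9 below, led by Dnajc9 with 0.23 (-0.016 to 0.47), which also chaperones histones. Of 18 further co-chaperones of HSP70 and HSP90 9 lay above 0 and 9 below, and of 7 further small heat shock proteins only 3 were abundant enough to be tested. None of these genes passed the adjusted test in edgeR in any of the 3 comparisons, and at an unadjusted p below 0.05 the count was 0 as well. Of all genes tested, the share under that p was 2.15% higher and 2.98% lower in DG/DG against WT, 0.755% and 0.844% in DG/+ against WT, and 1.68% and 1.62% in DG/DG against DG/+. Whether the counts of 0 differ from these shares was not tested.

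Within genotypes, log2 CPM spread less in most members than in most genes tested, which were not matched to the members for level. The median SD of log2 CPM within genotypes was 0.138 over the 40 members and 0.185 over all genes tested. Within the set Hspb1, with an SD of 0.39, Hspb8 and Hspa1b, with 0.37 each, Hspa1a, with 0.33, and Hspa2, with 0.30, varied most, whereas Hspa4 at 0.057, Dnaja2 at 0.063 and Hsph1 at 0.082 were the steadiest. The inducible members did not stand together in this order, with 0.24 for Bag3, 0.19 for Dnajb1 and 0.13 for Hsp90aa1 between Hspa1b and Hsph1. An SD of this kind includes counting noise, which is larger at low counts, so it does not measure differences between mice alone. Hspb1 averaged 4.75 CPM and Hspa4 332.0 CPM over the 14 libraries, although Dnajc25, at 2.97 CPM, had an SD of 0.22.

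Particular mice were high across much of the set. DG/DG replicate 3, DG/+ replicate 3 and WT replicate 1 each held the highest value of their genotype for 20 of the 40 members (50%), whereas they did so for 25.4%, 14.9% and 26.7% of all genes tested. WT replicate 4 held the lowest WT value for 20 members, against 25% of all genes. DG/DG replicate 3 and WT replicate 1 also had the lowest summed excitatory neuron markers of their genotype, 2131 and 2248 CPM, and the highest summed striatal markers, 561.6 and 264.2 CPM. DG/+ replicate 3 did not, with 3042 CPM of excitatory neuron and 242.6 CPM of striatal markers. In DG/+ the lowest excitatory neuron sum, 2171 CPM, and the highest striatal sum, 677.7 CPM, belonged to replicate 4. That mouse held the highest DG/+ value for only 8 members (20%), against 27.4% of all genes. The part of these marker levels in the chaperone values was not tested.

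**Figure D4:**
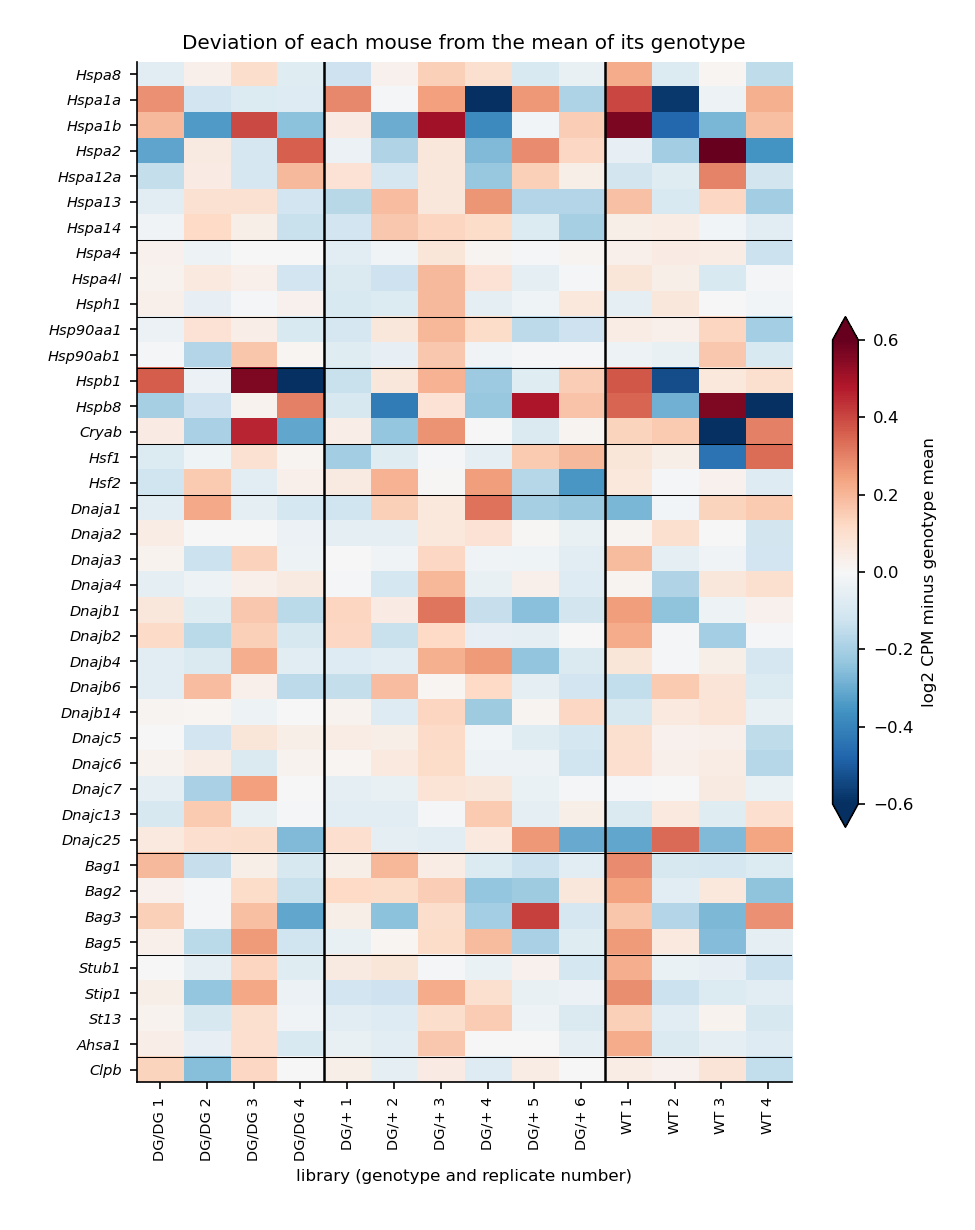
Log2 CPM of each member (rows, grouped by role) in each library (columns) minus the mean of its genotype; red is above and blue below that mean, and colours saturate at 0.6. The columns of DG/DG replicate 3, DG/+ replicate 3 and WT replicate 1, each highest for 20 of the 40 members, are mostly red.

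Whether chaperones vary with the inducible Dnajb1 from mouse to mouse was examined in 5 relations over the 14 libraries, with the inducible Hspa1b, Hspb1, Hsp90aa1 and Hsph1 and the constitutive Hspa8, and a sixth relation set Cryab beside oligodendrocyte markers. All p-values are two-sided from 100000 permutations and adjusted over the 6 relations. Dnajb1 and Hspa1b were correlated at Pearson r = 0.696 (permutation p = 0.00645, adjusted 0.0193) and Spearman rho = 0.662 (permutation p = 0.0122, adjusted 0.0245). Without the 2 libraries with the most extreme Hspa1b values, WT replicate 1 and DG/+ replicate 3, r was 0.509 (permutation p = 0.0938), so the relation rests in part on them. Without WT replicate 1 alone r was 0.644 and its adjusted permutation p 0.0567. After each value was expressed as its deviation from the genotype mean, r was 0.769. As a description, Dnajb1 had coefficients of like size with members outside the inducible ones named above, 0.735 with Ahsa1, 0.728 with Bag2 and with Dnaja3, and 0.708 with Bag1. Its coefficient was 0.498 with the inducible Hspa1a, 0.289 with the inducible Bag3 and -0.047 with Dnaja1, which was also listed as stress-inducible.

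Dnajb1 and Hspb1 had r = 0.632 (permutation p = 0.013, adjusted 0.0259) and rho = 0.692 (permutation p = 0.00788, adjusted 0.0236). Without DG/DG replicate 4 and WT replicate 2, the most extreme libraries, r was 0.685. The adjusted permutation p was 0.0831 without DG/DG replicate 3, 0.0639 without WT replicate 1 and 0.0873 without WT replicate 2, so each of these mice decided the call. Dnajb1 and Hspa8 had r = 0.574 (permutation p = 0.0337, adjusted 0.0505) and rho = 0.613 (permutation p = 0.022, adjusted 0.0331), and r was 0.611 without WT replicate 4 and DG/DG replicate 3. Leaving out DG/+ replicate 1, DG/+ replicate 4 or WT replicate 4 brought the adjusted permutation p of r to 0.0239, 0.028 and 0.0252. For Hsp90aa1, r was 0.418 (permutation p = 0.136, adjusted 0.163), rho was 0.495 (permutation p = 0.0738, adjusted 0.0886) and r without WT replicate 4 and DG/+ replicate 5 was 0.384. For Hsph1, r was 0.189 (permutation p = 0.523, adjusted 0.523), rho was 0.059 (permutation p = 0.845, adjusted 0.845) and r without DG/+ replicates 3 and 1 was -0.091. The relation of Dnajb1 with Hsph1 did not pass the test.

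Cryab, which oligodendrocytes express strongly, was compared with their markers. The 5 markers summed were settled after the data had been seen, and the p-values below carry that limit. The summed level of Mbp, Mobp, Mog, Mag and Cldn11 was 975.2 to 1696 CPM in DG/DG, 1460 to 1812 CPM in DG/+ and 973 to 1814 CPM in WT, and all 5 markers had reads in all libraries. Cryab correlated with this sum at r = 0.918 (permutation p = 5e-05, adjusted 0.0003) and rho = 0.881 (permutation p = 7e-05, adjusted 0.00042), and r was 0.857 without DG/DG replicate 2 and WT replicate 3, the libraries farthest from the median sum. Within genotypes, as deviations from their means, r was 0.911. The 3 lowest Cryab values, in DG/DG replicates 2 and 4 and WT replicate 3, came with the 3 lowest marker sums, 975.2, 1029 and 973 CPM. The part of the marker level in the genotype difference of Cryab was not tested.

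**Figure D5:**
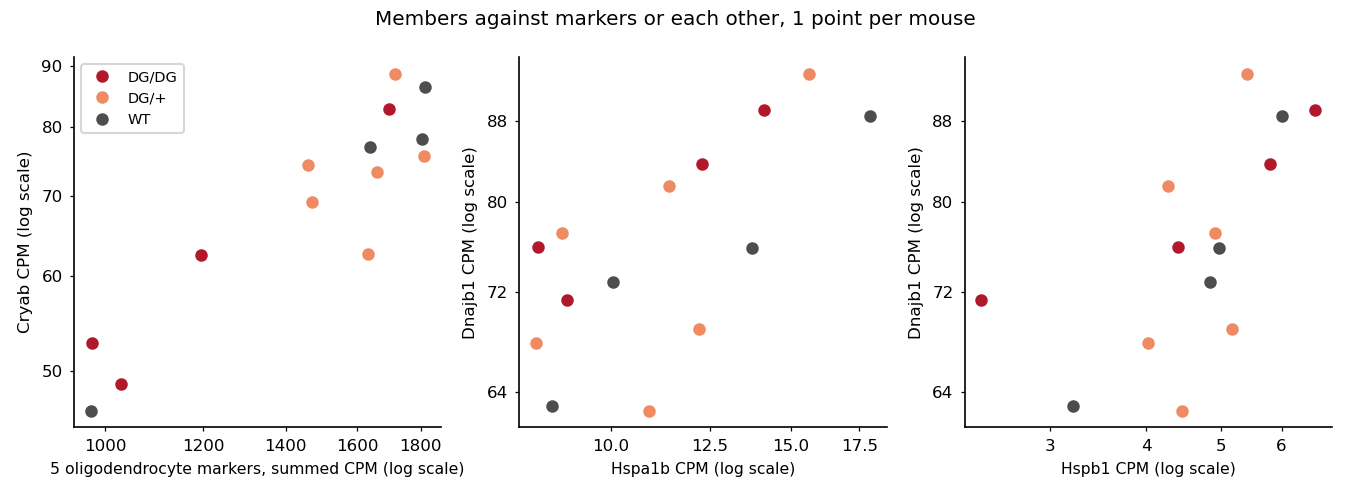
Cryab CPM against the summed CPM of 5 oligodendrocyte markers (left), and Dnajb1 CPM against Hspa1b (middle) and Hspb1 (right), all axes on log scales, 1 point per mouse coloured by genotype. Pearson r of log2 values is 0.918, 0.696 and 0.632, and mice of all genotypes lie along each relation.

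Other pairs of members are given as a description over the 14 libraries, which share their depth and tissue composition, from 780 pairs. The highest coefficients were 0.897 for Hspa2 with Hspa12a, 0.894 for the mitochondrial J-protein gene Dnaja3 with Stip1, and 0.864 for Dnaja3 with Ahsa1. The co-chaperones that link HSP70 to HSP90, Stip1 and St13, had 0.859. The lowest were -0.765 for Dnajc13 with Clpb and -0.749 for Hspa12a with Bag5.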

How the data were processed

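RNA from the anterior cortex of 14 mice was sequenced, 1 library per mouse. The authors deposited 1 table of 24939 RefSeq transcripts with raw read counts, log2 values that the authors normalized in a way not stated, and the authors' log2 fold changes, p-values and false discovery rates. Genome build mm10 and edgeR are named, with no version of the tool, in the submitters' processing notes. The aligner, the counter, the strand setting and the treatment of reads with several matches are not stated there. The transcript with the most counts was kept for each of 19360 symbols, which left out 5579 rows.

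Counts were tested in R 4.3.3 with edgeR 4.0.16 (default low-count filter, 14565 genes; TMM; robust quasi-likelihood fit over 14 libraries; Benjamini-Hochberg, threshold 0.05). DESeq2 1.42.0, limma-voom (limma 3.58.1), other scalings and filters, the authors' log2 values and left-out libraries served as alternatives. Precision is given as 95% confidence intervals. Log2 CPM for correlations used a prior count of 2. No 2 libraries of a genotype agreed within sampling noise (smallest chi-square per degree of freedom 5.53).

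Named members are the 3 with the smallest p in each direction of each comparison, the 2 most abundant per length in each role and a list of 9 members. That list was drawn up as stress-inducible and holds Hspa1a, Hspa1b, Hsph1, Dnajb1, Dnaja1, Hspb1, Bag3, Hsp90aa1 and Hspa8. The last of these is treated as constitutive in the text above. Other members are summarised by role, and those named beyond the rule were chosen after their values were seen. The oligodendrocyte sum uses 5 markers, a choice made after the data were seen, and 1 listed marker is not reported here. The members, lists, markers and tests were chosen with earlier results of these data known.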

Additional observations from a re-analysis of the deposited data

Results flagged for a closer look

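Within genotypes, 12 of 123 sets of values (a member, or Vcp, in 1 genotype) held a highest or lowest mouse that stood apart from the rest by Dixon's criterion, of which chance flags about 1 in 20. Those of DG/DG were Hspa1a in replicate 1 (10.8 CPM, next 8.46), Dnaja1 in replicate 2 (80.5 CPM, next 66.2), Dnajb4 in replicate 3 (84.6 CPM, next 69.4) and Dnajc25 in replicate 4 (2.35 CPM, next 2.95, the low side). In DG/+ they were Hsp90ab1 (1542 CPM, next 1374), Dnaja3 (73.8 CPM, next 67.8) and Ahsa1 (116.3 CPM, next 104.2), all in replicate 3. In WT they were Bag1 (89.8 CPM, next 69.6), Stip1 (229.8 CPM, next 180.8) and Ahsa1 (120.4 CPM, next 98.9) in replicate 1, Hspa12a in replicate 3 (382.8 CPM, next 296.6) and Hspa4 in replicate 4 (293.9 CPM, next 328.7, the low side). All 3 flags of DG/+ fell on the mouse that was highest of its genotype for 20 of the 40 members, and 3 of the 5 WT flags on the WT mouse of which the same holds.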

How the results depend on the processing

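Under every alternative run, including DESeq2, limma-voom, the authors' log2 values, a threshold of 0.1 and each left-out library, 0 genes and 0 members passed the adjusted test in all 3 comparisons. No pairing of mice by replicate number was assumed in the main tests. Deviations from the genotype means correlated above 0.1 in 6 of 12 pairs of the same number (median 0.072, range -0.215 to 0.292). They did so in 15 of 52 pairs of different numbers (median -0.051, range -0.499 to 0.543). Whether the numbers pair the mice is not settled by these values, and with the replicate block 0 members were called. The median over the members ranged, with 1 library left out at a time, between 0.028 and 0.092 in DG/DG against WT, -0.028 and 0.035 in DG/+ against WT, and 0.028 and 0.081 in DG/DG against DG/+, and the block gave 0.050, 0.032 and 0.017. Of 624 fold changes of named members 614 kept their sign and their side of the threshold. The reversed ones, all in DG/DG against WT, were Hspb1 (-0.010 with the replicate block, -0.043 with voom, -0.29 without the 4 libraries with transcripts of neighbouring tissue, -0.18 to 0.24 with 1 library left out), Dnajb1 (-0.058 without the 4 libraries), Bag3 (-0.17 to 0.0098) and Hspa1b (-0.35 to 0.026) with 1 library left out. The smallest adjusted p among them all was 0.428. Correlations of Dnajb1 moved across the threshold. With Hspa8, r was 0.576 (adjusted p 0.0486) with median-ratio scaling and 0.497 to 0.673 with 1 library left out. With Hspa1b it was 0.692 (adjusted p 0.0894) without the 4 libraries and 0.631 to 0.757 with 1 left out. With Hspb1 it was 0.542 (adjusted p 0.194) and 0.554 to 0.756. With Hsph1 it was -0.181 to 0.346 with 1 left out. The cause of these shifts was not tested. In DG/DG against WT the intervals of Hspa1a, Hspa1b, Hspb8, Cryab and Dnajc25 reached beyond 1.5-fold. Precision was lowest for Hspb1, whose interval of -0.52 to 0.55 was the widest of the members.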
